A study of Mus musculus with 16 samples.

Results

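Testes of mice with a conditional knockout of Ythdc2 (cKO) were compared with testes of control mice at postnatal day 16 (P16). The comparison used 4 of the 16 libraries of the series, 2 control and 2 cKO, which were prepared with one rRNA depletion kit (Ribo-Zero, "the first kit") and sequenced in one run. Of 55414 gene identifiers in the table, the 17986 with a deposited value of at least 10 in at least 2 of the 4 libraries were tested. Per the labels, tamoxifen (10 mg per ml) had been given to control and cKO mice alike on P12 and on P13. The labels give the genotypes only as control and Ythdc2 conditional knockout. They name neither the driver of the recombinase nor the floxed allele or the strain, and they do not say whether the controls carried the Cre. Nor do they say that each library came from a separate animal, so the p-values measure the spread between these libraries, which may be technical. The P14 libraries of the same kit (2 control and 2 cKO, same treatment) are given beside the P16 values. So is a second set of P16 libraries, made with the NEBNext depletion kit ("the second kit"): cKO library 3 and 4 Cre control libraries, treated with tamoxifen on the same days. The second set has 1 cKO library and so allows no test of its own. By the column names cKO library 3 shares its identifier codes with Cre control library 1 and not with the other Cre controls. Unmapped reads were 30.7% and 32.7% in those libraries and 39.4% to 41.2% in the other Cre controls. In differences from the mean of the Cre controls, batch and knockout therefore cannot be fully told apart.

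YTHDC2 is an RNA helicase of the YTH family, whose members bind N6-methyladenosine (m6A) in RNA. In germ cells it works with MEIOC and RBM46, and mice that lack any of them from the start fail to establish meiotic prophase. In the juvenile testis the first cohort of germ cells passes in near synchrony from spermatogonia through DNA replication, leptotene and zygotene into pachytene. RNA from the whole testis at a given day therefore depends in part on the stages that cohort has reached. Deletion by tamoxifen after the first cells have entered meiosis bears on what the protein does later, which the title of the series names as its subject.

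Reads on genes numbered 24985266 and 27531529 in the control and 26927274 and 25178051 in the cKO libraries, and 17.0% to 18.1% of them fell on the 10 most read genes. The deposited values are reads divided by a size factor of the library, with no division by gene length, so levels are compared within a gene and not between genes. All changes are log2 differences of cKO minus control, on the scale log2(value + 1), with their standard error (SE). "Called" means a limma p under 0.05 after Benjamini-Hochberg adjustment over all 17986 genes. Each value printed for a group below is that of one library, with 2 libraries per group. All germ cell and somatic cell markers were read in RNA from the whole testis, where fewer cells of a type and less RNA per cell cannot be told apart. Defining markers of spermatogonia, spermatocytes, Sertoli cells and Leydig cells were present in every library. Of the 14 round spermatid markers 4 were at 0 in all 4 libraries and 2 passed the filter.

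At P16 the loss of Ythdc2 came with many changes of small size. Of the 17986 genes 38.6% were called (6939 genes), 18.6% higher in cKO (3352 genes) and 19.9% lower (3587 genes). The counts given for gene lists below are to be read beside these shares. All lists and their members were chosen with earlier results of these data known, and lists were counted, not tested. The median size of a called change was a log2 difference of 0.34. A change of at least 2-fold was called for 253 genes that rose (1.41%) and 288 that fell (1.60%). Changes under 0.25 on the log2 scale made up 913 of the rises and 1107 of the falls. The cKO and control libraries did not overlap for 34.2% of genes with higher and 35.4% with lower values in cKO, so a lack of overlap between 2 and 2 libraries is common here. Without the trend in limma's variance estimate 741 genes were called higher and 1065 lower, and over both kits 1207 (6.14%) and 1510 (7.68%). The fit over both kits pooled controls with Cre controls, so kit, run and control type cannot be told apart in it. At P14 0.00579% of 17270 genes were called, which was Ythdc2 alone. There 410 genes had an unadjusted limma p under 0.05, and 2 were higher and 3 lower with the replicate number as a block. The P14 cKO libraries differed from each other, with 28.6% and 22.5% of reads outside genes. Meioc stood at 8484 and 9153 in the P14 controls and at 10679 and 13658 in the P14 cKO libraries and was not called. A gene not called at P14 is therefore not shown to be unchanged.

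**Figure D1:**
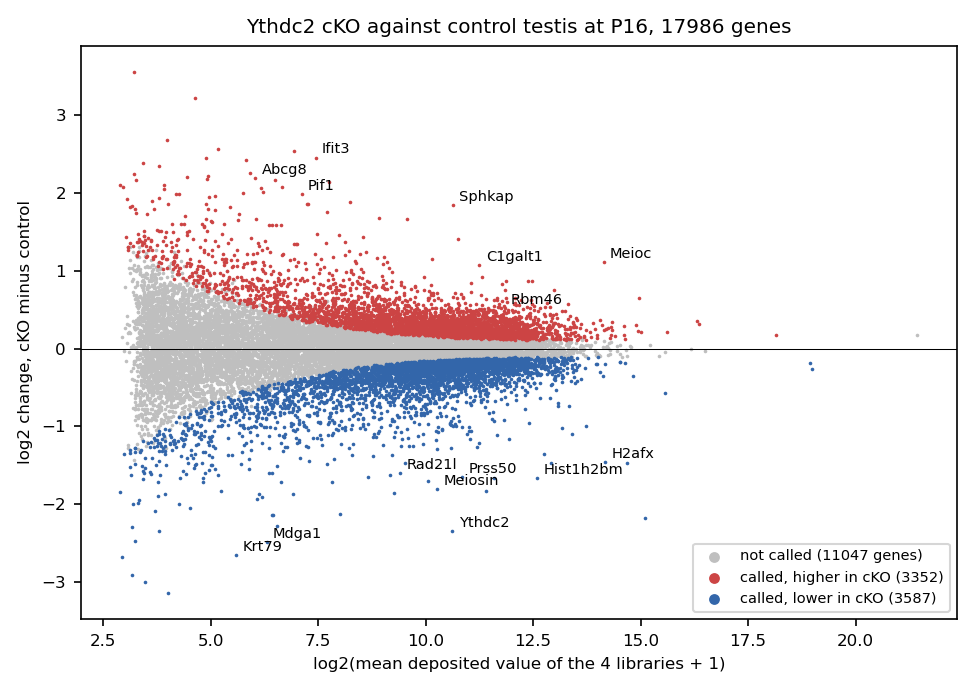
Log2 change of cKO minus control (y axis) against the log2 of the mean deposited value plus 1 (x axis) for each gene tested at P16, with called genes in colour. Most called genes lie within a log2 change of 1, and the named genes, Ythdc2 among the falls and Ifit3 and Meioc among the rises, lie outside the main cloud for their level.

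Ythdc2 itself (ENSMUSG00000034653) stood at 2666 and 2609 in the controls and 502 and 541 in the cKO libraries, a change of -2.34 (SE 0.06, limma adjusted p 2.39e-10). The groups were far apart, and about as far in the second kit, where cKO library 3 held 226 against 1392 to 2633 in the Cre controls. Both known partners of the protein rose. Meioc (ENSMUSG00000051455), which encodes the coiled-coil partner needed for meiotic prophase, stood at 11559 and 11322 in control and 23147 and 26517 in cKO libraries, a change of 1.11 (SE 0.05, limma adjusted p 2.72e-08). The second kit gave 1.25 for Meioc. Rbm46 (ENSMUSG00000033882), which encodes an RNA-binding protein of the same complex, stood at 3044 and 2967 in the controls and 4044 and 4609.9 in the cKO libraries, a change of 0.52 (SE 0.06, limma adjusted p 2.33e-05) and a second-kit difference of 0.49. Meioc and Rbm46 had log2 differences of 0.45 and 0.15 at P14, where neither was called.

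Among the 11 genes of the list of YTHDC2 partners and m6A readers, 5 rose and 4 fell, Ythdc2 included. Igf2bp3, a reader that stabilises methylated RNA, rose from 829 and 784 to 1293 and 1405, a change of 0.74 (limma adjusted p 3.68e-06). Of 11 m6A writers and erasers 2 rose (18.2%) and 5 fell (45.5%), against 18.6% and 19.9% of all genes. All of these changes were under 2-fold. The falls were led by Mettl14, a core subunit of the methyltransferase (-0.43), and Alkbh5, a demethylase (-0.41). Zc3h13, which holds the writer complex in the nucleus, changed by -0.39, and Cbll1, a further subunit, rose by 0.34. Over both kits Mettl14, Zc3h13 and Cbll1 were not called (limma adjusted p 0.126, 0.237 and 0.0711). Genes of RNA decay moved little. Of 44 tested, 6 rose and 14 fell, with a median of -0.08 and the largest fall in Dis3, a catalytic subunit of the exosome (-0.46).

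The machinery that cuts DNA at the start of meiotic recombination fell as a whole. All 13 genes of double-strand break formation were called lower, against 19.9% of all genes, and 7 of them at least 2-fold, with a median change of -1.11. Mei1, required for break formation, stood at 896 and 1037 in the controls and 260.1 and 271 in the cKO libraries, a change of -1.86 (SE 0.09, limma adjusted p 2.00e-08). Prdm9, the histone methyltransferase that places the breaks, stood at 864 and 886 in control and 292 and 273 in cKO libraries, a change of -1.63 (limma adjusted p 2.31e-08). Iho1, which recruits the break machinery to unsynapsed axes, fell by 1.46, and Mei4, its partner, by 1.20. In all of these genes both cKO libraries lay below both controls by a margin wider than the spread within a group. In the second kit 12 of the 13 genes were lower in cKO library 3, with a median difference of -0.44. At P14 the median was -0.12. The exception in the second kit was Mei4 (0.36), which was not called over both kits (limma adjusted p 0.276).

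Chromosome axis and synaptonemal complex genes were lower too, by less. Of 17 genes, 15 fell and 0 rose, with a median of -0.36 and -0.35 in the second kit. Rad21l, a meiotic cohesin, fell most, from 1069 and 974 to 327 and 348, a change of -1.59 (SE 0.08, limma adjusted p 2.51e-08). Syce2, of the central element, changed by -0.93. The cohesin genes Stag3 and Smc1b changed by -0.73 and -0.70. Stag3 stood at 10949 and 10821 in the controls and 6393 and 6724 in the cKO libraries, and its second-kit difference was -0.72. Without the variance trend 5 of the 17 genes were called lower.

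Further along the recombination pathway, 17 of 27 genes of strand invasion and crossover fell and 1 rose (median -0.41, second kit -0.26). Msh5, which stabilises crossover intermediates, fell by 1.24 (SE 0.08, limma adjusted p 4.11e-07), and Dmc1, the meiotic recombinase, by 0.87. The one rise was in Mlh3, which resolves crossovers, at 0.38. Tex11 and Tex15 changed by -0.91 and -0.73, with second-kit differences of near 0 and of 0.52. Neither was called over both kits (limma adjusted p 0.0547 and 0.608), nor was Mlh3 (adjusted p 0.146). Genes that attach telomeres to the nuclear envelope were mixed, with 6 of 13 lower and 2 higher. Terb1 and Majin, of the meiotic telomere complex, changed by -0.74 and -0.55, and Spdya, an activator of CDK2 at telomeres, rose by 0.26. Majin and Spdya were not called over both kits (limma adjusted p 0.0837 and 0.317).

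Genes of meiotic entry were lower in cKO. Of 17 genes of differentiating spermatogonia and meiotic entry 13 fell and 1 rose, with a median of -0.39. Meiosin, the partner of STRA8 in switching on the meiotic programme, stood at 1936 and 1910.3 in the controls and 593 and 511 in the cKO libraries, a change of -1.80 (SE 0.07, limma adjusted p 5.73e-09). Stra8 stood at 2560.4 and 2926 in control and 1236 and 1315 in cKO libraries, a change of -1.10 (limma adjusted p 1.29e-07). Prss50, a testis protease, fell by 1.65, and Rhox13, an X-linked homeobox gene, by 0.93. The retinoblastoma gene Rb1 was the one that rose (0.20). Here the kits differed for several genes. The second-kit differences were -0.97 for Prss50 and -0.30 for Meiosin, but 0.24 for Stra8 and 0.23 for Rhox13. Over both kits Stra8 and Rhox13 were not called (limma adjusted p 0.129 and 0.175), and 6 of the 17 genes were called lower. The list's median in the second kit was -0.07.

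Of 19 genes of undifferentiated spermatogonia 10 fell and 3 rose (median -0.23, second kit -0.06). Upp1 stood at 159 and 188 in the controls and 81.5 and 73.5 in the cKO libraries, a change of -1.15, and Egr4, a target of GDNF signalling, changed by -0.83. Lhx1, another target of GDNF, was low in all libraries but rose (1.12). Id4 and Etv5 rose as well (0.41 and 0.31), and Gfra1, Eomes and Bcl6b were not called. Upp1 and Lhx1 were not called over both kits (limma adjusted p 0.170 and 0.242), and neither was Pax7 (adjusted p 0.821), which changed by -1.17 at values under 20. In that fit 3 genes of the list were called lower and 0 higher. In the retinoic acid pathway 7 of 20 genes fell and 2 rose. Stra6, the retinol importer, and Rbp4, the retinol carrier, fell by 0.96 and 0.97. Cyp26b1, which degrades retinoic acid and is made by somatic cells of the tubule, rose by 0.63, from 2369 and 2754 to 3786 and 4103. Rarg, a retinoic acid receptor, changed by -0.50. Over both kits Stra6 and Rarg were not called (limma adjusted p 0.0868 and 0.293).

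DNA replication genes fell nearly throughout. Of 40 genes, 36 were called lower and 0 higher, with a median of -0.51. Lig1, the replicative ligase, stood at 2741 and 2761 in the controls and 1409 and 1328 in the cKO libraries, a change of -1.01 (SE 0.05, limma adjusted p 3.79e-08). Mcm5, a subunit of the replicative helicase, stood at 4755 and 4716 in control and 2547 and 2487 in cKO libraries, a change of -0.91. Prim1, a primase subunit, and Orc1, of the origin recognition complex, fell by 0.94 and 0.88. The second kit gave a smaller median of -0.16, with 33 of 40 genes lower, and 19 of the 40 were called lower over both kits. Prim1 and Orc1 were not among those (limma adjusted p 0.0740 and 0.0805).

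Histone genes of the clusters, most of which are switched on in S phase, formed a group that was chosen after its values were seen. The group includes H1f6, which is also in the list of pachytene products. Of 65 tested, 48 fell and 0 rose, 22 of them at least 2-fold. The summed value over the group was 252940.0 and 260260.0 in the controls and 128360.0 and 144300.0 in cKO, with a median change of -0.72. Hist1h2bm stood at 9216 and 9630.0 in the controls and 2746 and 3228 in the cKO libraries, a change of -1.66 (SE 0.06, limma adjusted p 4.11e-09), and Hist3h2ba changed by -1.83. The group did not repeat in the second kit. There 37 of 64 genes were higher and the median difference was 0.05, with 0.04 for Hist1h2bm, 0.05 for Hist1h4n and -0.03 for Hist3h2ba. Over both kits 16 of the group were called lower, and Hist1h2bm and Hist1h4n were not (limma adjusted p 0.0573 and 0.0562). Kit, run and control type all differ between the sets of libraries, so the source of this difference cannot be told apart. Many histone genes are near-identical copies, and the division of reads among them is uncertain.

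Of 26 genes of the DNA damage checkpoint 18 fell and 1 rose. H2afx, which encodes the histone variant phosphorylated at breaks and on the sex body, stood at 26541 and 27806 in the controls and 9156 and 10765 in the cKO libraries, a change of -1.45 (SE 0.06, limma adjusted p 9.06e-09). Its second-kit difference was -0.69. The kinase genes Chek1 and Atm fell by 0.93 and 0.67 and Clspn, an adaptor of CHK1, by 0.77. Wrn, a RecQ helicase, rose by 0.32. Chek1 and Atm were not called over both kits (limma adjusted p 0.0695 and 0.173). Among 49 cyclins and M-phase regulators 18 fell and 9 rose. Fbxo5 (the APC/C inhibitor EMI1), Ccnd1 and Ccne2, which act before or during S phase, fell by 0.99, 0.96 and 0.67. Ccnb2, a cyclin of M phase, rose by 0.42, from 1853 and 1826 to 2324 and 2601. Ccne2 and Ccnb2 were not called over both kits (limma adjusted p 0.110 and 0.0904).

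Most ribosomal protein genes fell by small amounts. Of 78 genes 66 were called lower and 1 higher, with a median of -0.24. The largest fall was in Rpl3l, a paralog of Rpl3 made in muscle, which changed by -1.15 at values under 30 and was not called over both kits (limma adjusted p 0.101). Rps28 stood at 7178 and 7164 in the controls and 5065 and 4999 in the cKO libraries, a change of -0.51 (SE 0.04, limma adjusted p 1.72e-06), and Rps7 fell by 0.44. The X-linked Rps4x was the exception (0.25), and was not called over both kits (limma adjusted p 0.0778). In the second kit 61 of 78 genes were lower, with a median of -0.11. Without the variance trend 5 of the 78 were called lower, and over both kits 24. Ribosomal protein genes have many processed pseudogenes, whose reads can be exchanged with theirs.

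Of genes that spermatocytes switch on in pachytene, those of the acrosome and sperm surface rose more often than they fell in the first kit. Of 28 acrosome and sperm surface genes that passed the filter (of 47), 14 rose and 5 fell, against 18.6% and 19.9% of all genes. Zpbp, which encodes an acrosomal protein, rose from 958 and 921 to 2327 and 2673, a change of 1.41 (SE 0.07, limma adjusted p 2.11e-08), with 0.91 in the second kit. Adam5, of the sperm surface, rose by 0.87, and Spaca6, needed for sperm-egg fusion, by 0.75. Spaca9 fell by 0.76. The list had a median of 0.25 at P16, 0.17 at P14 and -0.08 in the second kit. Over both kits 1 of its genes was called higher, which was Zpbp, while Adam5 and Spaca6 were not called (limma adjusted p 0.126 and 0.356).

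Of 23 other pachytene products 8 rose and 4 fell. Dpep3, a dipeptidase of spermatocytes, stood at 4186 and 3955 in the controls and 2036 and 2229.9 in the cKO libraries, a change of -0.93 (SE 0.05, limma adjusted p 1.17e-07) and a second-kit difference of -0.98. Pgk2, the glycolytic enzyme of meiotic and later germ cells, rose by 0.86, and Nxf2, an RNA export factor, fell by 0.73. Ccna1, the meiotic A-type cyclin, was low in all libraries and changed by -0.84. Pgk2, Nxf2 and Ccna1 were not called over both kits (limma adjusted p 0.172, 0.0828 and 0.483). For the list as a whole the median was 0.07, and -0.28 in the second kit. Of 23 pachytene transcription factors and cofactors 4 rose (17.4%) and 6 fell (26.1%), near the 18.6% and 19.9% of all genes. Taf7l and Taf4b, which replace subunits of TFIID in germ cells, fell by 0.78 and 0.81, and the orphan receptor gene Nr6a1 fell by 0.59. Sox5 rose by 0.62, but was not called over both kits (limma adjusted p 0.0956).

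In the piRNA pathway, which silences transposons, 8 of 26 genes fell (30.8%) and 4 rose (15.4%), against 19.9% and 18.6% of all genes. Piwil4 and Spocd1, of the nuclear branch, changed by -0.81 and -0.90 from low levels. Tdrd6, a scaffold of the chromatoid body, rose by 0.53, from 2841 and 2672 to 3972 and 3982. None of those 3 was called over both kits (limma adjusted p 0.194, 0.176 and 0.360). Among 28 genes of translational control in germ cells 5 rose and 7 fell. The RNA-binding protein gene Elavl2 fell from 1029.8 and 1104 to 466 and 495 (-1.15). Papolb, a testis poly(A) polymerase, rose by 0.52, and Cpeb1, which acts on cytoplasmic polyadenylation, fell by 0.65. Papolb and Cpeb1 were not called over both kits (limma adjusted p 0.173 and 0.0629).

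Axoneme and cilia genes were lower in both kits, and by more in the second. Of 54 genes 24 fell and 6 rose in the first kit, with a median of -0.20. In the second kit 50 of 54 were lower, with a median difference of -0.64, whereas the P14 median was 0.18. Tekt3, a filament protein of the flagellum, stood at 179 and 129.5 in the controls and 30.1 and 31.1 in the cKO libraries, a change of -2.28 (SE 0.20, limma adjusted p 4.07e-06). The P14 difference of Tekt3 was -1.24, at low values of 7.54 and 17.3 in control and 0.971 and 13.2 in cKO libraries. Its second-kit difference was -0.73, with cKO library 3 at 47.6, inside the Cre control range of 22.4 to 141. Ttc29, a factor of flagellar transport, fell by 0.97, with -1.28 in the second kit, and Dnah10, an inner dynein arm heavy chain, by 0.85. Tekt4 rose by 0.88, with -0.41 in the second kit. Tekt3, Dnah10 and Tekt4 were not called over both kits (limma adjusted p 0.0681, 0.210 and 0.570), and 6 genes of the list were called lower there.

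Microtubule genes had no common direction. Of 52 kinesin and dynein genes 8 rose (15.4%) and 16 fell (30.8%), with a median of -0.07. Of 62 tubulin and microtubule regulator genes 10 rose (16.1%) and 15 fell (24.2%), with a median of -0.02. Over all genes 18.6% rose and 19.9% fell. Haus8, of the augmin complex that branches spindle microtubules, stood at 946 and 984 in the controls and 429.9 and 432 in the cKO libraries, a change of -1.16 (SE 0.07, limma adjusted p 1.41e-07). Haus2, of the same complex, fell by 0.64. Kif23, a motor of cytokinesis, fell by 0.68 and Tuba4a by 0.79. Camsap2, which protects the minus ends of microtubules, rose by 0.33. Haus2 and Tuba4a were not called over both kits (limma adjusted p 0.0715 and 0.463).

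**Figure D2:**
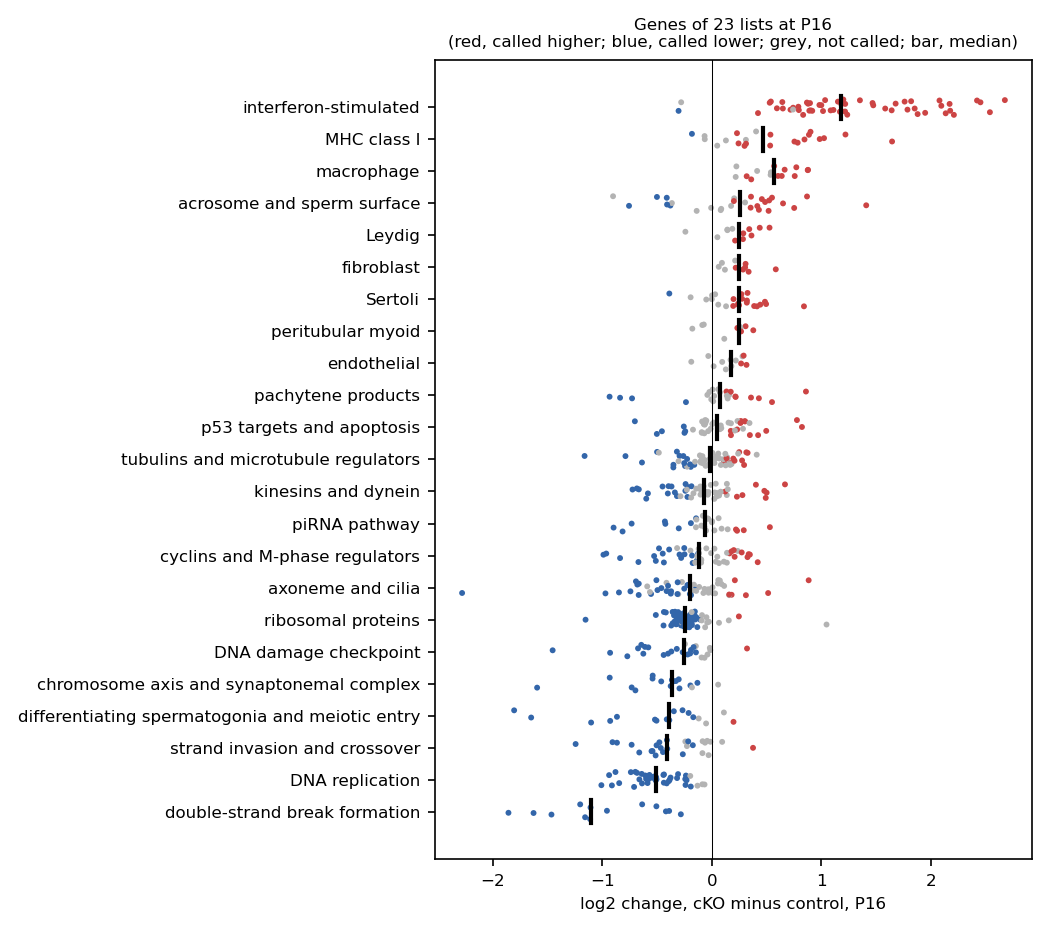
Log2 change at P16 (x axis) of each tested gene of 23 lists (rows), with the list median as a bar and called genes in red (higher) or blue (lower). The interferon-stimulated genes lie almost wholly to the right, and genes of double-strand break formation and DNA replication wholly to the left of 0.

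Interferon-stimulated genes had the highest median change of the lists examined at P16. These genes are switched on when a cell senses viral or other abnormal RNA or DNA, or receives type I interferon. Of 56 tested, 53 were called higher, against 18.6% of all genes, 34 of them at least 2-fold, and 1 was called lower. The list's median was 1.17. Ifit1 (ENSMUSG00000034459), which binds RNA with a foreign 5′ end, stood at 43.6 and 28.4 in the controls and 204 and 214 in the cKO libraries, a change of 2.54 (SE 0.20, limma adjusted p 1.82e-06). Ifit3 stood at 55.1 and 50.1 in the controls and 263 and 323 in the cKO libraries and Ifit3b at 12.5 and 21.7 in control and 79.6 and 108 in cKO libraries, with changes of 2.45 and 2.42 (limma adjusted p 2.06e-07 and 3.98e-05). In each of these genes both cKO libraries lay above both controls, which the rule that named the largest rises required. Ifit3 and Ifit3b are near-identical paralogs, so how reads were split between them is uncertain.

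Part of this group carries a common sequence upstream of the gene. The interferon response element was searched as GAAA, any 2 bases and GAAA, on both strands, in the 250 bases before the start of 11529 protein-coding genes with a RefSeq promoter (build GRCm38.p6). It was found in 2.52% of all these promoters. Among genes at least 2-fold higher in cKO it was found in 29 of 127 (22.8%), among those at least 2-fold lower in 1.42%. In the interferon-stimulated list it was found in 19 of 42 (45.2%). That list overlaps the 2-fold higher set, as 34 of its genes were at least 2-fold higher. The share without the list was not counted. A match describes the letters and is not a measured binding site. The stretches below show the matches in capitals, 5′ to 3′ on the strand of the gene. They are from genes among the largest rises of the list that hold a match. They lie at chr19:34640769-34640848 (plus strand) for Ifit1, chr19:34583372-34583451 (plus) for Ifit3, chr19:34607768-34607847 (plus) for Ifit3b, chr12:26456528-26456607 (minus) for Rsad2 and chr5:120777690-120777769 (minus) for Oas3.
Ifit1: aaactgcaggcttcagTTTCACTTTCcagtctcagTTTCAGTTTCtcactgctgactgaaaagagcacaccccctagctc
Ifit3: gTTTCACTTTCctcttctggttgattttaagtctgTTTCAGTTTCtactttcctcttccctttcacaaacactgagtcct
Ifit3b: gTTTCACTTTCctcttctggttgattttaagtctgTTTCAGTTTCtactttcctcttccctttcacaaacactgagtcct
Rsad2: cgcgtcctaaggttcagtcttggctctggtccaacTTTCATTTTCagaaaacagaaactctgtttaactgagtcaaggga
Oas3: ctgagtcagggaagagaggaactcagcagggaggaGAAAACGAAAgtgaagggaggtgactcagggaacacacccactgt

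The stretches of Ifit3 and Ifit3b are the same, as the 2 genes are copies of each other. Ifit1, Ifit3 and Ifit3b each hold 2 matches and Rsad2 and Oas3 1 each. Of other genes searched, Isg15 holds 3 matches, and Irf7, Cmpk2, Oasl2, Parp12, Ddx58 and Ifih1 hold 0. Rsad2, which encodes the antiviral enzyme viperin, stood at 28.1 and 35.9 in the controls and 155 and 138 in the cKO libraries, a change of 2.17 (SE 0.19, limma adjusted p 4.54e-06). Oas3, a sensor of double-stranded RNA that activates RNase L, was low in the controls at 2.08 and 4.73, and stood at 21.3 and 31.1 in cKO (2.67). Irf7, the transcription factor that amplifies the interferon response, stood at 99.8 and 62.4 in the controls and 324 and 377 in the cKO libraries, a change of 2.13. Ifi27l2a stood at 44.7 and 32.1 in control and 168 and 158 in cKO libraries (2.08). Oasl2, of the same family as Oas3, rose by 0.92, from 720.1 and 659 to 1226 and 1379.6. The one gene of the list called lower was Parp12 (-0.30).

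The second kit showed the same direction at a smaller size. In cKO library 3, 53 of 56 interferon-stimulated genes were above the Cre control mean, and the median difference was 0.45. The differences were 0.76 for Ifit1, 0.86 for Ifit3, 0.51 for Irf7 and 0.87 for Oas3, but 0.06 for Rsad2, which was not called over both kits (limma adjusted p 0.0551). Ifit1 stood at 68.8 in cKO library 3 and at 15.6 to 63.2 in the Cre controls. Ifit3 stood at 118 against 39.9 to 96.4 and Irf7 at 314 against 124 to 306. Cre control library 4 was the lowest in Ifit1, Ifit3 and Irf7. Over both kits 42 of the 56 genes were called higher. At P14 the median was 0.16. The P14 differences were 1.23 for Ifit1 and 1.88 for Ifit3b, neither of which was called at that stage, and 0.12 for Rsad2. The P14 control libraries differed from each other in Ifit1 (32.3 and 88.9) and Ifit3b (4.31 and 41.2). In Rsad2 they were closer (52.8 and 58.5).

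**Figure D3:**
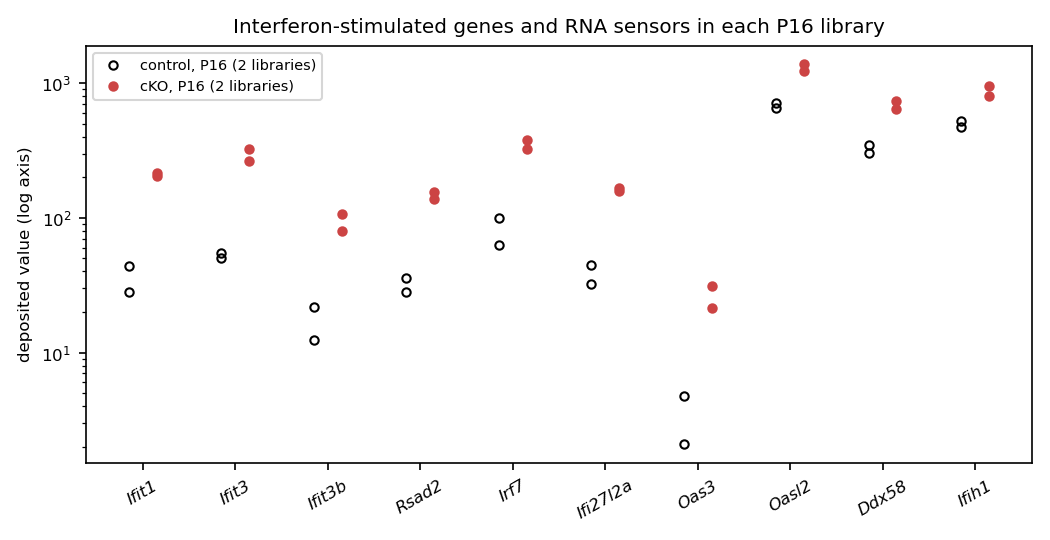
Deposited value (log axis) of 10 interferon-stimulated genes and RNA sensors in each P16 library of the first kit, controls as open and cKO libraries as red points. In each of the 10 genes both cKO libraries lie above both controls, which the naming rule required of most of them.

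Upstream of these genes, the ligands, receptors and sensors moved less. Of 35 genes in that list 29 passed the filter and 5 were at 0 in all 4 libraries. Of the 29, 12 rose and 5 fell, with a median of 0.21. The cytosolic RNA sensor genes Ddx58 (RIG-I) and Ifih1 (MDA5) rose by 1.09 and 0.82. Ddx58 stood at 350.2 and 303 in the controls and 649 and 745 in the cKO libraries, and Ifih1 at 525 and 473 in control and 802 and 961 in cKO libraries. Zbp1, a sensor of Z-form nucleic acids, rose by 1.70 at values under 32. Adarb1, an adenosine deaminase that edits double-stranded RNA, fell by 0.85. All 4 of these were called over both kits as well, in a fit that holds the same first-kit libraries.

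Genes of MHC class I presentation, which interferon also induces, rose in 15 of 22 cases and fell in 1 (Calr, -0.18), with a median of 0.47. H2-T23 rose from 261 and 212 to 508 and 452 (1.02), and the peptide transporter Tap1 by 0.98. Nlrc5, the transactivator of the class, stood at 33.3 and 37.8 in the controls and 123 and 57.0 in the cKO libraries, with a wide gap between the cKO libraries. H2-T24 changed by 1.64. Neither H2-T24 nor Nlrc5 was called over both kits (limma adjusted p 0.0917 and 0.0872). At P14 the list's median was -0.17.

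Macrophage markers, like the interferon and MHC genes, were mostly higher in cKO at P16. Of 15 markers 10 rose and 0 fell (median 0.57), and their summed value was 4356 and 4437 in the controls and 6416 and 6219 in cKO. Lyz2 stood at 399 and 333 in the controls and 702 and 640.1 in the cKO libraries (0.88), Ctss changed by 0.87 and Adgre1, which encodes F4/80, by 0.76. In the second kit 11 of 15 were higher (median 0.22). At P14 2 of 15 were higher (median -0.14), where the median was 0.16 for interferon-stimulated and -0.17 for MHC class I genes. Of 11 lymphocyte markers 4 passed the filter, of which 2 rose and 1 fell, with summed values of 179.8 and 187 in the controls and 233 and 218 in cKO. Gzmb, a granzyme of cytotoxic lymphocytes, rose by 1.79 at values under 14, Ptprc, common to leukocytes, rose by 0.70, and Cd3e, of T cells, fell by 0.74. None of them was called over both kits (limma adjusted p 0.280, 0.0656 and 0.158), nor was Ctss (adjusted p 0.141). The part of these cells in the interferon and MHC results was not tested.

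Markers of somatic cells of the testis had small positive medians. Of 24 Sertoli markers 16 rose and 1 fell (median 0.24), and of 12 Leydig markers 7 rose and 0 fell (median 0.25). The medians were 0.24 for 10 peritubular myoid markers, with 4 called higher, 0.25 for 10 fibroblast markers, with 6 called higher, and 0.17 for 12 endothelial markers, with 3 called higher, a share near the 18.6% of all genes. None of those 3 lists had a gene called lower. Gdnf, the Sertoli factor that maintains spermatogonial stem cells, stood at 168 and 171 in the controls and 327 and 284 in the cKO libraries, a change of 0.84 (SE 0.11, limma adjusted p 9.79e-05). Kitl, the ligand of KIT, and Fshr, the receptor for FSH, rose by 0.49 and 0.48. Dmrt1, made by Sertoli cells and by spermatogonia, was the one that fell (-0.39).

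The Leydig enzymes Srd5a1 and Hsd3b6 rose by 0.53 and 0.44, Pdgfra of interstitial fibroblasts by 0.58 and Myh11 of myoid cells by 0.31. In the second kit the medians were 0.14, 0.11, 0.08, 0.27 and 0.22, in the same order of cell types. Over both kits 4 Sertoli, 0 Leydig, 0 myoid and 2 fibroblast markers were called higher, and Gdnf was not (second-kit difference 0.01, limma adjusted p 0.136). Of 6 erythroid genes 0 were called at P16, and 1 of the cKO libraries held more of them (1419.9) than the other (603).

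Genes of the mitochondrial genome rose in 8 of 14 cases and fell in 0, with a median of 0.25. mt-Co1 stood at 71464 and 72018 in the controls and 92714 and 90334 in the cKO libraries, a change of 0.35. The median was -0.25 at P14 and 0.76 in the second kit. Genes of p53 response and apoptosis went both ways, with 12 of 42 higher and 6 lower and a median of 0.04. Eda2r, a death receptor induced by p53, rose by 0.82, from 72.7 and 58.6 to 129 and 105. Cdkn1a, the cell cycle inhibitor p21, rose by 0.78, and the survival gene Bcl2l1 fell by 0.50. Cdkn1a was not called over both kits (limma adjusted p 0.0922). Of 31 heat shock and unfolded protein response genes 5 rose and 6 fell, shares near the 18.6% and 19.9% of all genes. Hspa5 and Creld2, induced by stress of the endoplasmic reticulum, changed by -0.35 and -0.48, and Hspb1, a small heat shock protein, rose by 0.35.

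Several genes that no list held were among the largest rises of called protein-coding genes with a higher group mean of at least 50. Tmem236, which encodes a membrane protein, stood at 10.4 and 8.51 in the controls and 62.1 and 59.0 in the cKO libraries, a change of 2.56 (SE 0.28, limma adjusted p 2.44e-05), and at 2.50 in the second kit. Pif1, a DNA helicase, stood at 54.0 and 55.8 in the controls and 235 and 207 in the cKO libraries (1.99, second kit 1.83). Gabrb2, a GABA receptor subunit, rose by 1.96 and Abcg8, a sterol transporter subunit, by 2.19. Among genes with a higher group mean of at least 1000, Sphkap, an anchor protein for protein kinase A, stood at 699 and 696 in the controls and 2402 and 2591 in the cKO libraries, a change of 1.84 (SE 0.06, limma adjusted p 1.64e-09). The monocarboxylate transporter Slc16a7 rose by 1.67 and the glycosyltransferase C1galt1 by 1.07. Ermp1, a peptidase of the endoplasmic reticulum, and Ssx2ip, a centrosome and adhesion protein, rose by 0.92 and 0.87. All 9 of these rises were called over both kits, in a fit that holds the libraries by which they were chosen.

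Among called protein-coding genes with a higher group mean of at least 50, the largest falls apart from Ythdc2 were in Krt79, Mdga1, Tekt3, Nudt17 and Ctcfl. Krt79, a keratin, stood at 88.3 and 76.6 in the controls and 9.70 and 15.5 in the cKO libraries, a change of -2.65 (SE 0.28, limma adjusted p 1.70e-05), but differed by -0.19 in the second kit. Mdga1, a cell adhesion protein, fell by 2.48 and Nudt17, a hydrolase of the Nudix family, by 2.14, with -0.42 and -0.35 in the second kit. Ctcfl, which encodes BORIS, the germ cell paralog of CTCF, stood at 389.7 and 447 in the controls and 78.6 and 115 in the cKO libraries, a change of -2.12 and a second-kit difference of -0.40. Capn11, a testis calpain, and Rhd fell by 1.93 and 1.87, with -1.37 and -1.29 in the second kit. Ugt8a, which makes galactolipids of germ cells, fell from 1588 and 1648 to 493 and 501. Pcdh11x and Eaf2 fell by 1.91 and 1.87, differed by 0.29 and 0.20 in the second kit, and were not called over both kits (limma adjusted p 0.158 and 0.0848). Of the 171 genes named by the rule, 66 overlap a gene annotated on the opposite strand, among them Tmem236, Mdga1, Ctcfl, Sphkap, Prdm9, Iho1 and Lig1. The strand setting of the counting is not given in the sources used here, so reads of such partners cannot be told apart.

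Set against the libraries of the second kit, the 2-fold genes kept their direction for the most part at a smaller size. Of the 253 genes at least 2-fold higher, 239 were measured there. In cKO library 3, 207 of these (86.6%) were above the mean of the Cre controls, and the median difference was 0.59, where the rule set at least 1 in the first kit. Of the 288 at least 2-fold lower, 258 were measured and 201 (77.9%) were below the Cre controls (median -0.39). With each Cre control library in turn compared with the rest of them, 33.1% to 65.3% of the first and 31.4% to 69.4% of the second set lay in those directions. For Cre control library 1, which shares the codes of cKO library 3, the shares were 65.3% and 31.4%. A difference of at least 2-fold in the same direction was seen for 61 of the 239 and 48 of the 258. In the limma fit over both kits, where 13.8% of 19659 genes were called, 133 of 240 and 141 of 283 genes of the 2 sets were called. That fit holds the first-kit P16 libraries that chose these genes, so the counts describe and do not support them.

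At P14 the same genes had moved little. The 2-fold higher genes had a median difference of 0.08 at P14, with 104 of 179 measured genes higher, and the 2-fold lower genes -0.09, with 174 of 239 lower. The difference of the cKO effect between the stages was tested with limma over the 8 first-kit libraries of both stages. It was called for 7.50% of 18469 genes, 2.95% with a higher effect at P16 and 4.55% with a lower one. Among the 2-fold genes this held for 44 of 249 higher and 126 of 288 lower ones. That contrast holds the P16 libraries that chose these genes, so their counts describe and do not support them.

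**Figure D4:**
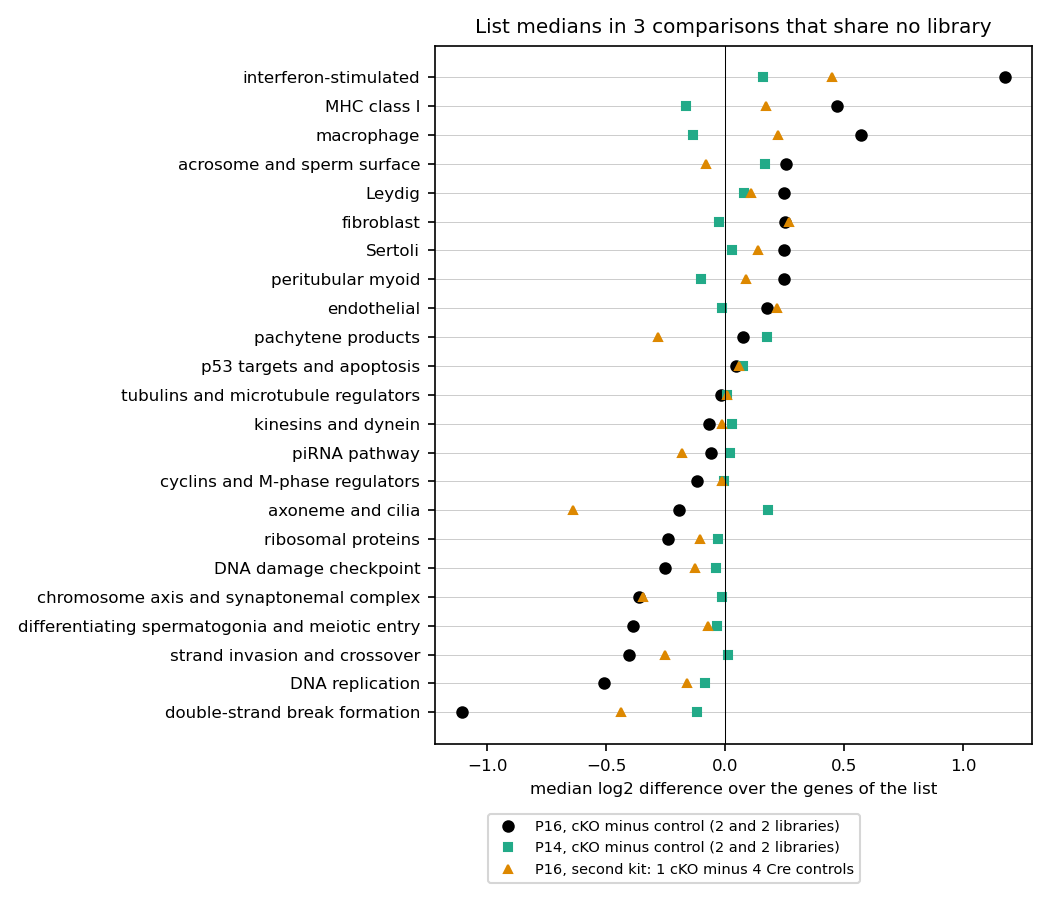
Median log2 difference (x axis) over the genes of 23 lists (rows) at P16 and P14 in the first kit, and for cKO library 3 against the Cre controls in the second kit. P14 medians lie near 0 for most lists. The second-kit medians for interferon-stimulated and double-strand break genes lie between those of P14 and P16, and that for axoneme and cilia lies to the left of both.

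Called genes differed in their transcript structure according to direction. Protein-coding genes were split into quintiles by the length of the 3′ untranslated region (UTR) of a transcript per gene in GENCODE M21. In the quintile with the shortest 3′ UTRs (median 137 bases) 13.9% of genes were called higher and 29.3% lower. In the quintile with the longest (median 3338 bases) the shares were 31.2% and 16.5%. Over all protein-coding genes they were 21.2% and 22.5%. With ribosomal protein and histone genes left out, an alternative chosen after seeing the data, the shortest quintile had 14.5% higher and 27.4% lower. The median change ran from -0.08 to 0.08 between the outer quintiles, and in the second kit from -0.10 to 0.13. At P14 it was 0.02 and 0.01. Rises of at least 2-fold did not follow this order, with 34, 34, 28, 36 and 30 genes from the shortest to the longest quintile. Falls of at least 2-fold numbered 88, 25, 28, 35 and 30.

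The same order was seen with related measures among called genes of any size of change. Genes with the longest transcripts were called higher in 31.8% of cases and those with the shortest in 13.6%. For the quintiles of longest and shortest genomic span these shares were 30.2% and 14.4%. For coding length the range was narrower, from 16.2% to 26.2%. Genes of the lowest GC content were called higher in 28.4% and those of the highest in 14.6%. Rises of at least 2-fold numbered 26 in the longest and 31 in the shortest transcripts, and 22 and 39 for span. For the lowest and highest GC content they numbered 57 and 10. The separate parts of these features were not tested.

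**Figure D5:**
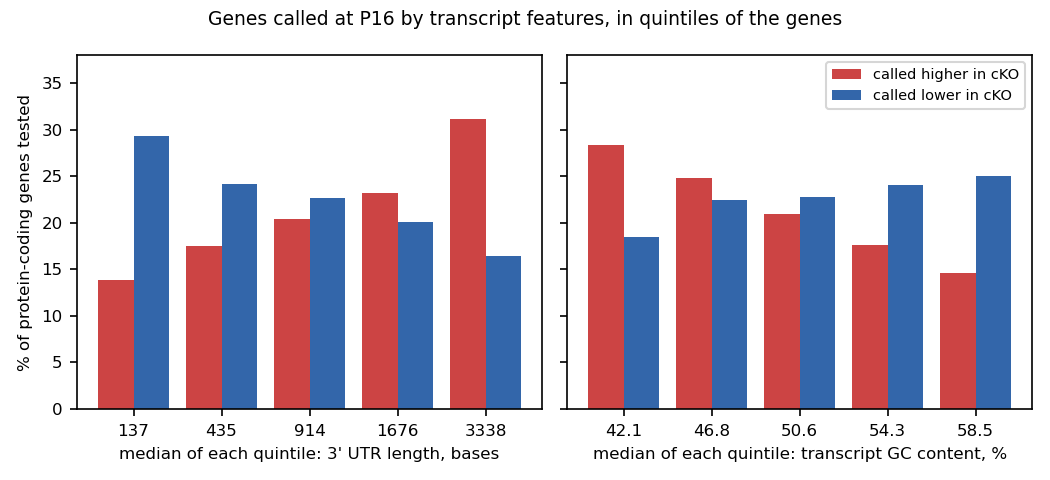
Share of tested protein-coding genes called higher (red) or lower (blue) in cKO at P16 (y axis, %), in quintiles of 3′ UTR length (left) and transcript GC content (right), with the median of each quintile under its bars. The share called higher climbs with 3′ UTR length from 13.9% to 31.2% and falls with GC content from 28.4% to 14.6%. Called changes of any size are counted, and rises of at least 2-fold showed no such climb with 3′ UTR length.

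By chromosome the called genes were spread widely. X-linked genes, most of which are silenced in pachytene, were called higher in 24.3% and lower in 19.7% of 686 cases, against 18.4% and 19.97% on the autosomes. Their median change was 0.04 in the first kit, 0.18 in the second and -0.03 at P14. Chromosome 13, which carries the largest histone cluster, held 28 of the 288 genes at least 2-fold lower, which is 3.81% of its 734 tested genes against 1.60% of all genes. Among single-exon protein-coding genes 29 of 503 (5.77%) were at least 2-fold lower, against 177 of 14330 (1.24%) of those with several exons.

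The STRA8 motif CNCCTCAG was found in 7.22% of all promoters, 4.72% of those at least 2-fold higher, 9.93% of those at least 2-fold lower and 0 of 9 promoters of the double-strand break list. The RFX motif was in 3.44% of all promoters, 0.787% of the 2-fold higher ones, 7.09% of the 2-fold lower ones and 17.4% of the axoneme and cilia list. The MYB motif AACNGNC was in 28.1% of all, 29.1% of the 2-fold higher and 29.1% of the 2-fold lower promoters, and in 45.7% of the axoneme and cilia list. The CREM motif TGACGTCA was in 2.62% of all, 0.787% of the 2-fold higher and 2.84% of the 2-fold lower ones.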

How the data were processed

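RNA of whole testes was depleted of rRNA and sequenced. Per the submitters' processing notes the tools were Trim Galore, STAR, HTSeq and DESeq2 and the build GRCm39; versions, annotation release and strand setting are not given in the sources used here. The deposited values are a signal: read counts the authors divided by a size factor per library, within each table. All values above 0 were whole multiples of 1 read (tolerance 0.01), so read counts were recovered. Summary rows were left out, of which unmapped reads took 18.9% to 21.1% at P16. GENCODE M21 (GRCm38) named 52133 of 55414 identifiers and gave transcript features, and no gene coordinates are printed from it.

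limma 3.58.1 (R 4.3.3, lmFit and eBayes with trend) was fitted to log2(value + 1), which understates changes of low genes. The stage difference and the fit over both kits used limma on log2 CPM (TMM, prior count 1). The fit over both kits took all P16 libraries, those of the main comparison included, with kit as a covariate. It pooled controls with Cre controls, and the differing identifier codes within the second kit were not modelled. edgeR 4.0.16 and DESeq2 1.42.0 on the recovered reads were alternatives. Further alternatives changed the pseudocount, the filter, the scaling, the variance trend, the replicate block and the libraries. The scripts were tested on simulated data. Named are Ythdc2, Meioc and Rbm46, the 10 largest called rises and 10 falls of protein-coding genes with a higher group mean of at least 50, the 8 and 8 with one of at least 1000, and per list up to 4 called genes plus the largest change against the majority. The largest rises and falls were taken only from genes whose control and cKO libraries did not overlap. Members and the 37 lists were chosen with earlier results of these data known, and lists were counted, not tested. Replicate libraries differed by more than sampling noise, with a chi-square per gene of 2.36 and 3.56. Counting intervals are not given, and reads without molecular identifiers are not independent molecules.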

Additional observations from a re-analysis of the deposited data

Results flagged for a closer look

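The effect of the knockout differed between P14 and P16 (limma interaction over 8 first-kit libraries, adjusted p under 0.05) for 544 genes with a higher and 841 with a lower effect at P16. Of the 171 genes named by the rule 99 were among them. The differences below are log2 effects at P16 minus those at P14, on the log2 CPM scale. They include the P16 libraries by which the genes were chosen.

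Among genes that rose at P16, the difference was 0.67 for Meioc, 1.92 for Abcg8, 2.06 for Rsad2, 1.50 for Ifi27l2a, 1.94 for Pif1 and 1.76 for Gabrb2. It was 0.87 for Zpbp, 0.99 for C1galt1, 0.53 for Ermp1 and 0.65 for Ssx2ip.

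Among genes that fell, the difference was -0.72 for Ythdc2, -2.63 for Krt79, -2.26 for Mdga1, -2.01 for Nudt17, -1.83 for Ctcfl, -1.79 for Pcdh11x, -1.75 for Rhd and -1.61 for Eaf2. For histone genes it was -1.64 in Hist3h2ba, -1.48 in Hist1h4n and -1.44 in Hist1h2bm. For meiotic genes it was -1.51 in Meiosin, -1.47 in Prss50 and -1.25 in Rad21l, and for Ugt8a it was -1.42.

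In the second kit a single Cre control library stood apart from the other Cre controls in 2 genes of 36 examined. Pcdh11x was 37.9 in library 1 against 19.2 to 21.4 in the others, and Ssx2ip was 2558 in library 4 against 3015 to 3086. Chance flags about 1 in 20 groups in this way.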

How the results depend on the processing

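Against 3352 higher and 3587 lower genes at P16 (253 and 288 at least 2-fold), the fit without the variance trend called 741 and 1065, with 145 at least 2-fold higher. The fit over both kits called 1207 and 1510 (112 and 121 at least 2-fold). DESeq2 called 2339 lower, and 132 and 165 at least 2-fold. The 2-fold counts were 106 and 147 with a minimum value of 50 and 109 and 145 with a pseudocount of 10. Leaving out each library gave 2392 to 3431 higher, 2375 to 3701 lower, 225 to 268 at least 2-fold higher and 224 to 320 at least 2-fold lower, the lowest count of lower genes being without control library 1. In these fits the lone library of a group is assumed to vary like the other group. At P14 they gave 0 to 3 higher and 0 to 1 lower. The cause of these shifts was not tested.

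Same-numbered libraries are not said to be paired, and their deviations correlated by 0.0798. With the replicate number as a block 3992 genes were higher and 4208 lower at P16, 2 and 3 at P14, and 1320 and 1494 for the stage difference.

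Of the 171 named genes, 76 were not called over both kits, 57 without trend, 10 without a filter, 5 of 165 by DESeq2, 2 with quantile scaling and 4 to 12 without one library. All 171 were called by edgeR, with TMM and with either pseudocount, and none changed direction in any of these fits. In lists with a median of at least 0.1 in size, the sign turned only for the erythroid and round spermatid lists.

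With 100 bases of promoter in place of 250, the interferon motif was in 16.5% of 2-fold higher and 0% of 2-fold lower promoters. The MYB motif was in 9.45% and 14.2%, CREM in 0.709% of 2-fold lower and RFX in 0% of 2-fold higher ones.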
